A study of Homo sapiens with 16 samples.

Results

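Krüppel-like factors (KLFs) are DNA-binding proteins, and the genes described here are 10 members of that family: KLF2, KLF3, KLF4, KLF5, KLF6, KLF7, KLF9, KLF10, KLF11 and KLF13. They were chosen by name, with earlier results of these data known. Each symbol was matched to its Ensembl identifier among the 60666 genes of the deposited tables. All 10 passed the filter on low counts, which left 22597 genes for testing. RNA sequencing was done on U2OS cells, an established human osteosarcoma line, in 16 libraries that fall into 8 groups with 2 libraries each. The stable lines were of 4 kinds: plko.puro vector alone, knockdown of PIP4K2A by short hairpin RNA, knockdown of PIP4K2B in the same way, and double knockdown, and every line was kept in medium with puromycin. Each line was sequenced untreated and 6 h after UV-C irradiation at 30 J/m2, given without medium. PIP4K2A and PIP4K2B encode kinases that convert phosphatidylinositol 5-phosphate to phosphatidylinositol 4,5-bisphosphate, and the series was set up to ask how these kinases affect gene expression and splicing. The labels do not say how many hairpins or clones stand behind a line, nor whether the libraries of a group came from separate cultures, so the p-values below measure only the spread between these libraries, which may be technical.

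A KLF protein carries 3 zinc fingers near its carboxyl terminus that read GC-rich boxes and CACCC elements in promoters, the same kind of site that SP1 and its relatives bind. The amino-terminal part differs between members and decides the partner. KLF2, KLF4, KLF5, KLF6 and KLF7 are best known as activators that work with acetyltransferases, KLF3 recruits the co-repressor CtBP, and KLF9, KLF10, KLF11 and KLF13 bind the SIN3A co-repressor. Several members are early response genes with short-lived messages, and KLF10 and KLF11 were first described as genes induced early by TGF-beta.

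Of the 16 libraries, 15 were used, with 28002912 to 39873512 expected counts each. The first untreated vector library was set aside, with earlier results of these data known. It held 1278298 counts, and its implied fragment length was 399 bases against 199.6 to 253 in the others. Its log2 values correlated with theirs at 0.538 to 0.596, against 0.974 to 0.998 among the rest. Untreated vector cells are therefore represented by 1 library, and their spread is assumed to be that of the other groups. PIP4K2A stood at 7.91 to 20.5 normalised CPM where its hairpin was present and at 49.5 to 61.1 elsewhere, and PIP4K2B at 12.8 to 24.6 against 68.8 to 97.0. Normalised CPM are counts relative to library size (CPM) after scaling by the trimmed mean of M values (TMM), a composition factor that assumes most genes do not change. COL1A1 and SPARC, matrix genes of bone-forming cells, were high in every library, at 1253 or more and 608 or more normalised CPM, while COL1A2, SP7, BGLAP and IBSP stayed under 1. Of the epithelial list, the keratins KRT8 and KRT18 were present too, at 106.6 to 612 and 94.2 to 351. The rest of that list was low: EPCAM at 1.69 to 6.68, CDH1 at 2.41 to 5.65, KRT5 at 0.79 to 2.02 and KRT19 at most at 0.116. Endothelial and blood marker lists summed to at most 5.01 and 2.11, with CD3E under 0.1 in every library.

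Because several members moved together under UV, the promoter windows of 2 members that fell and 2 that did not pass the test are shown for comparison. They are read 5′ to 3′ on the gene's strand from RefSeq (GRCh38.p14), cover up to 250 bases before the annotated start, and leave out bases inside the GENCODE gene model. Capitals mark matches on either strand, and adjoining or overlapping matches run together. The motifs searched were the GC box, spelled GGGCGG, the element spelled CACCC, the box spelled CCAAT, the TATA box, spelled TATAAA, the cAMP response element, spelled TGACGTCA, and the AP-1 element, spelled TGANTCA.
KLF6, which fell most (chr10:3785282-3785459, minus strand): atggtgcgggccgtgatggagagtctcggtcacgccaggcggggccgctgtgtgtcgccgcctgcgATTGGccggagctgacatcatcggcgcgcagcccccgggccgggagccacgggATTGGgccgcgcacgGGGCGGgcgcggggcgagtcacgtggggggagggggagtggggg
KLF9, which also fell (chr9:70414658-70414907, minus strand): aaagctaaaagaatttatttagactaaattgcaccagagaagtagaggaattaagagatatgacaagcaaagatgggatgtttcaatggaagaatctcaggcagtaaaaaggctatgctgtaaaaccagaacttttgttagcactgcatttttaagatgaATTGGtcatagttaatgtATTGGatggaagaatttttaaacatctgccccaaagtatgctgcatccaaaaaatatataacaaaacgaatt
KLF2, not called (chr19:16324576-16324816, plus strand): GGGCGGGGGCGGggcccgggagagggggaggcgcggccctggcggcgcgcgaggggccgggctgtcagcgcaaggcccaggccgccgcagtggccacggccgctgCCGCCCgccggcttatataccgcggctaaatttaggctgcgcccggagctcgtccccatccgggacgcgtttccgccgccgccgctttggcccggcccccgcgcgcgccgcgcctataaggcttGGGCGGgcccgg
KLF13, not called (chr15:31326585-31326834, plus strand): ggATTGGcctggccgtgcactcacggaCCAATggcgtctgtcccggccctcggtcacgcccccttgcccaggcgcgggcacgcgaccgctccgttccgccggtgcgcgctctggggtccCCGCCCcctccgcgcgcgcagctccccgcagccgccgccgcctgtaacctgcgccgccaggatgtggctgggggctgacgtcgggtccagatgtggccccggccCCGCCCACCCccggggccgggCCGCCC
KLF6 and KLF13 each held 2 CCAAT matches and at least 1 GC box, KLF2 held 4 GC boxes and no CCAAT, and KLF9 held 2 CCAAT matches and no GC box, with a GC content of 32.4% against 72.4%, 78.8% and 80.0% in the windows of KLF6, KLF13 and KLF2 before trimming. Among 35116 untrimmed promoter windows of 250 bases, 42.64% held a GC box, 54.71% a CACCC, 32.01% a CCAAT, 10.72% a TATAAA, 1.65% a TGACGTCA and 6.57% a TGANTCA. The printed windows of KLF6 (178 bases) and KLF2 (241 bases) are shorter than these, and the untrimmed KLF6 window held 2 GC boxes. Over the 8 members whose windows were used, with 13 starts, a cAMP response element occurred only before 1 start of KLF11 and a TATAAA only before 1 start of KLF5, and no window held the AP-1 letters.

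After UV, 6 of the 10 genes were lower in each of the 4 lines, and they were the same 6: KLF3, KLF5, KLF6, KLF7, KLF9 and KLF11. None rose. The test was edgeR's quasi-likelihood test with Benjamini-Hochberg adjustment over all genes, called at an adjusted p under 0.05, and it called 9.82% of genes lower in vector cells, 14% in PIP4K2A knockdown cells, 15.4% in PIP4K2B knockdown cells and 16.1% in double knockdown cells. The median log2 change over the 10 genes was −0.89, −0.89, −0.89 and −0.88 in these lines, against 0.02, 0.01, 0.00 and 0.02 over all genes tested. Since the 10 genes were chosen with earlier results of these data known, these contrasts with all genes only describe them. For each of the 6, the highest of the 8 irradiated libraries lay below the lowest of the 7 untreated ones, whatever the line. The other 4 genes overlapped. The share of all tested genes that separate in this way is not given here, so the separation only describes these genes. In bulk RNA, fewer cells that use a gene and less RNA per cell cannot be told apart.

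**Figure D1:**
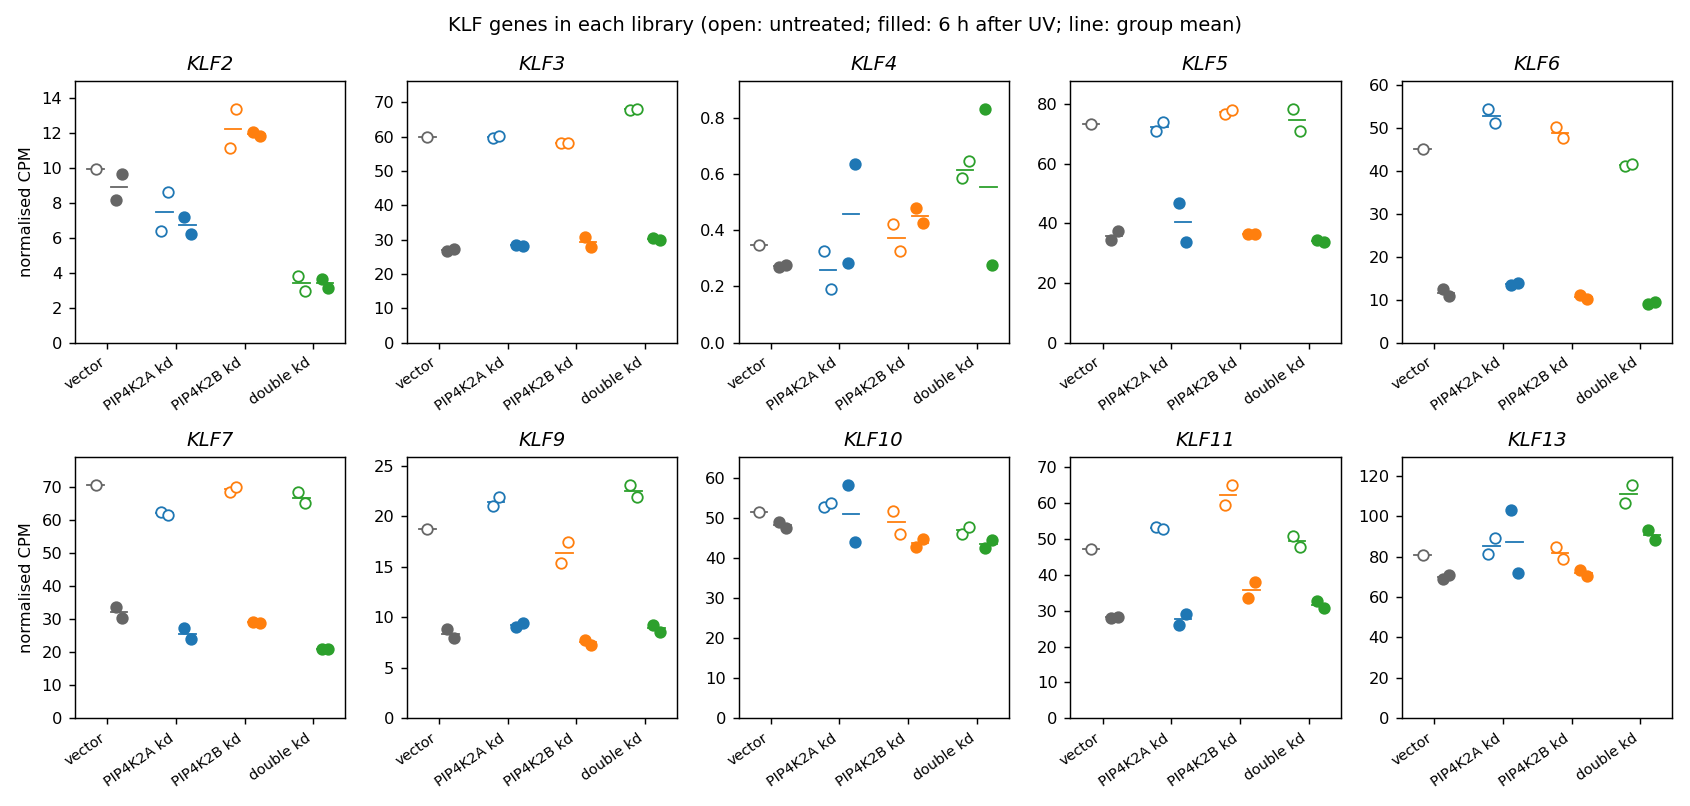
Normalised CPM (linear axis from 0, own scale for each gene) of the 10 KLF genes in 15 libraries by line; open circles are untreated, filled circles 6 h after UV, and short lines are group means. KLF3, KLF5, KLF6, KLF7, KLF9 and KLF11 show untreated circles above all filled ones, whereas KLF2 separates by line and KLF4 stays under 1.

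KLF6, an activator first found as an early response gene of injured liver and often lost or misspliced in tumours, fell most. It lies on chromosome 10 (3775996 to 3785281, minus strand). Untreated, it stood at 45.3 normalised CPM in the vector library, 54.5 and 51.2 with the PIP4K2A hairpin, 50.3 and 47.7 with the PIP4K2B hairpin, and 41.2 and 41.7 with both. After UV it stood at 12.6 and 10.8, 13.5 and 13.8, 11.2 and 10.1, and 8.98 and 9.45 in the same order of lines. The 2 ranges are far apart, and the double knockdown libraries are the lowest in each. The log2 change was −1.95 (SE 0.11, adjusted p = 7.75e-07 by edgeR) in vector cells, −1.95 (SE 0.10, adjusted p = 1.93e-07) with PIP4K2A knockdown, −2.20 (SE 0.10, adjusted p = 1.26e-07) with PIP4K2B knockdown and −2.17 (SE 0.10, adjusted p = 9.13e-08) with both, a 3.87-fold to 4.61-fold fall. Between 2.22% and 3.11% of all genes had a lower log2 change than KLF6 in these contrasts. The expected counts behind these values ran from 259 to 1995.

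KLF7, an activator known from axon growth and fat cell differentiation (chromosome 2, 207074137 to 207167267, minus strand), fell as well. Its untreated level was 70.8 normalised CPM in vector cells, 62.6 and 61.7 with PIP4K2A knockdown, 68.7 and 70.1 with PIP4K2B knockdown, and 68.6 and 65.1 with both. After UV the corresponding levels were 33.8 and 30.4, 27.4 and 23.9, 29.3 and 28.9, and 20.97 and 20.9. The lines lie close together before UV and spread after it, with vector cells highest and double knockdown cells lowest. The fall was 2.20-fold in vector cells (log2 −1.14, SE 0.10), 2.42-fold and 2.38-fold in the single knockdowns, and 3.19-fold in double knockdown cells (log2 −1.68, SE 0.09). KLF5, an activator that drives proliferation of epithelial crypts (chromosome 13, 73054976 to 73077542, plus strand), ran from 70.9 to 78.3 normalised CPM over the 7 untreated libraries and from 33.7 to 46.9 over the 8 irradiated ones. The library at 46.9 was the first irradiated PIP4K2A knockdown library; its partner stood at 33.7, the lowest of all. The log2 change was −1.03 (SE 0.15) in vector cells, −0.85 (SE 0.12) with PIP4K2A knockdown, −1.09 (SE 0.13) with PIP4K2B knockdown and −1.13 (SE 0.13) with both, and −1.13 with PIP4K2A knockdown when the first irradiated library of that line was left out.

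KLF3, the CtBP-binding repressor of the set (chromosome 4, 38664196 to 38701042, plus strand), had narrow ranges. It stood at 58.2 to 68.0 normalised CPM untreated, with both double knockdown libraries, at 67.8 and 68.0, above the other 5, and at 26.7 to 30.8 after UV. Its log2 change lay between −1.17 and −0.99 (SE 0.08 to 0.09) over the 4 lines. No annotated gene that overlaps a member on either strand reached a mean of 1 CPM.

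Among the SIN3A-binding members, KLF9 and KLF11 fell and KLF10 and KLF13 did not pass the test. KLF9, a gene induced by glucocorticoid and thyroid hormone (chromosome 9, 70384597 to 70414624, minus strand), stood at 18.8 normalised CPM in the untreated vector library, 21.0 and 21.9 with PIP4K2A knockdown, 15.4 and 17.4 with PIP4K2B knockdown, and 23.1 and 21.9 with both. After UV all 8 libraries lay between 7.23 and 9.39, a narrower range than before it. The log2 change was −1.16, −1.22, −1.13 and −1.34 (SE 0.11 to 0.13). KLF11 (chromosome 2, 10042849 to 10054836, plus strand) fell least of the 6 in 3 lines, and with PIP4K2A knockdown KLF5 fell less. It stood at 47.3 untreated and 28.1 and 28.3 after UV in vector cells, 53.4 and 52.8 against 26.1 and 29.2 with PIP4K2A knockdown, 59.5 and 65.2 against 33.6 and 38.1 with PIP4K2B knockdown, and 51.0 and 47.8 against 32.6 and 30.6 with both. The PIP4K2B knockdown libraries were the highest in each condition. Its log2 change was −0.75 (SE 0.11), −0.94 (SE 0.10), −0.80 (SE 0.10) and −0.64 (SE 0.10), a 1.56-fold to 1.92-fold fall.

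**Figure D2:**
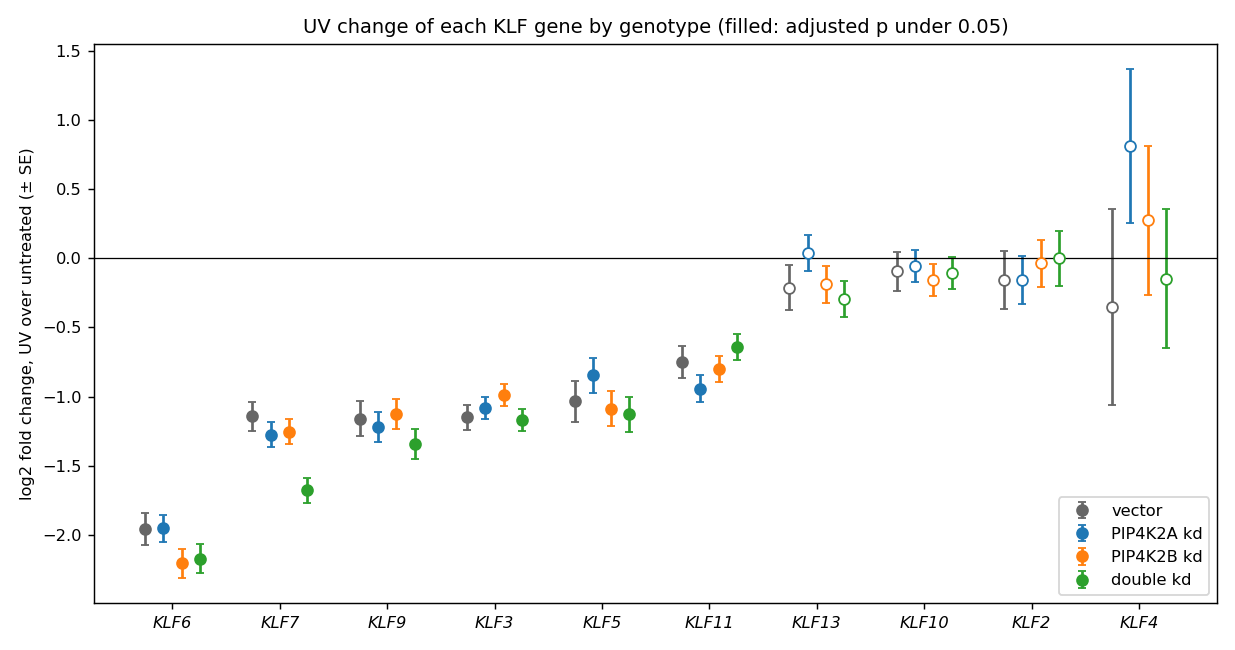
Log2 fold change of UV over untreated (vertical axis, ± SE) of each KLF gene in the 4 lines; filled points have an adjusted p under 0.05. KLF6 sits near −2 in every line, KLF7 is lowest in double knockdown cells at −1.68, and KLF13, KLF10, KLF2 and KLF4 are open throughout.

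KLF10, the TGF-beta inducible early gene, on chromosome 8, stood at 46.0 to 53.6 normalised CPM untreated and 42.5 to 58.2 after UV. Its log2 change was −0.09 in vector cells (95% interval by a normal approximation −0.37 to 0.18), −0.06 with PIP4K2A knockdown (−0.28 to 0.17), −0.16 with PIP4K2B knockdown (−0.39 to 0.07) and −0.11 with both (−0.33 to 0.12). Falls as large as those of KLF11 lie outside these approximate intervals on this scale. KLF13, known for switching on the chemokine gene CCL5 in T cells (chromosome 15, 31326855 to 31435665, plus strand), was the most counted member, at 1979 to 3750 counts. Its levels were 80.9 untreated and 68.9 and 70.7 after UV in vector cells, 81.1 and 89.2 against 103.0 and 71.8 with PIP4K2A knockdown, 84.9 and 78.8 against 73.2 and 70.5 with PIP4K2B knockdown, and 106.7 and 115.6 against 93.2 and 88.1 with both. In 3 lines both irradiated libraries lay below the untreated ones, and in the PIP4K2A knockdown line 1 lay above and 1 below. The log2 change was −0.21 (SE 0.16), 0.04 (SE 0.13), −0.19 (SE 0.13) and −0.29 (SE 0.13, adjusted p = 0.103 by edgeR in double knockdown cells).

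The irradiated PIP4K2A knockdown libraries differed from each other more than other pairs did for KLF5, KLF10 and KLF13, the first being higher in each. Without the first, KLF10 fell by 0.31 (adjusted p = 0.023 by edgeR) and KLF13 by 0.28 (adjusted p = 0.0321) on the log2 scale in that line. Without the second, KLF13 was higher after UV by 0.27 (adjusted p = 0.0247), so its direction in PIP4K2A knockdown cells rests on which library is kept. KLF13 in double knockdown cells passed the test without either of them, at −0.30 and −0.29 (adjusted p = 0.00392 and 0.00476), and with PIP4K2B knockdown it passed without the first, at −0.19 (adjusted p = 0.0455).

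KLF2, a factor of endothelial and T cell quiescence (chromosome 19, 16324817 to 16327874, plus strand), did not pass the test under UV in any line, with log2 changes of −0.16, −0.16, −0.04 and −0.00 (SE 0.17 to 0.21). KLF4, a reprogramming factor and a regulator of epithelial differentiation (chromosome 9, 107484852 to 107490482, minus strand), was close to absent. It had 6 to 24 counts per library, 0.192 to 0.832 normalised CPM, and its UV log2 changes of −0.35, 0.81, 0.27 and −0.15 carried SEs of 0.50 to 0.71. A change of KLF4 was not detectable at this depth.

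The calls for KLF2, KLF10 and KLF13 depend on the scaling. The composition factors were 1.08 to 1.15 in untreated and 0.873 to 0.954 in irradiated libraries. When 79 ribosomal protein genes were used as the standard instead, the median gene fell by 0.70 to 0.90 on the log2 scale under UV, and KLF2, KLF10 and KLF13 passed the test as lower in all 4 lines, which brought the count to 9 of 10 in each line. Under that scaling KLF10 changed by −0.82 to −1.07, KLF13 by −0.78 to −1.17 and KLF2 by −0.88 to −0.95, while KLF6 changed by −2.68 to −3.11. The deposited TPM shifted the same way: their median over all genes tested fell by 0.45 to 0.66 on the log2(TPM + 0.1) scale, and KLF10 fell by 0.58 to 0.90. With library totals alone the median gene fell by 0.23 to 0.30, KLF13 was called lower in vector, PIP4K2B and double knockdown cells (−0.47, −0.49 and −0.62) and KLF10 in the last 2 of these (−0.46 and −0.43). Of all genes called, 46.9%, 54.3%, 53.1% and 54.2% were higher after UV in the 4 lines under TMM, 1.37%, 1.34%, 0.83% and 0.915% with ribosomal protein genes and 11.97%, 19.7%, 17.96% and 15.9% with library totals. The 6 genes called lower fell by more than the median gene under each of these scalings. When only the groups compared were fitted, KLF13 was also called lower in vector (−0.25), PIP4K2B knockdown (−0.23) and double knockdown cells (−0.37), and KLF10 in double knockdown cells (−0.18).

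**Figure D3:**
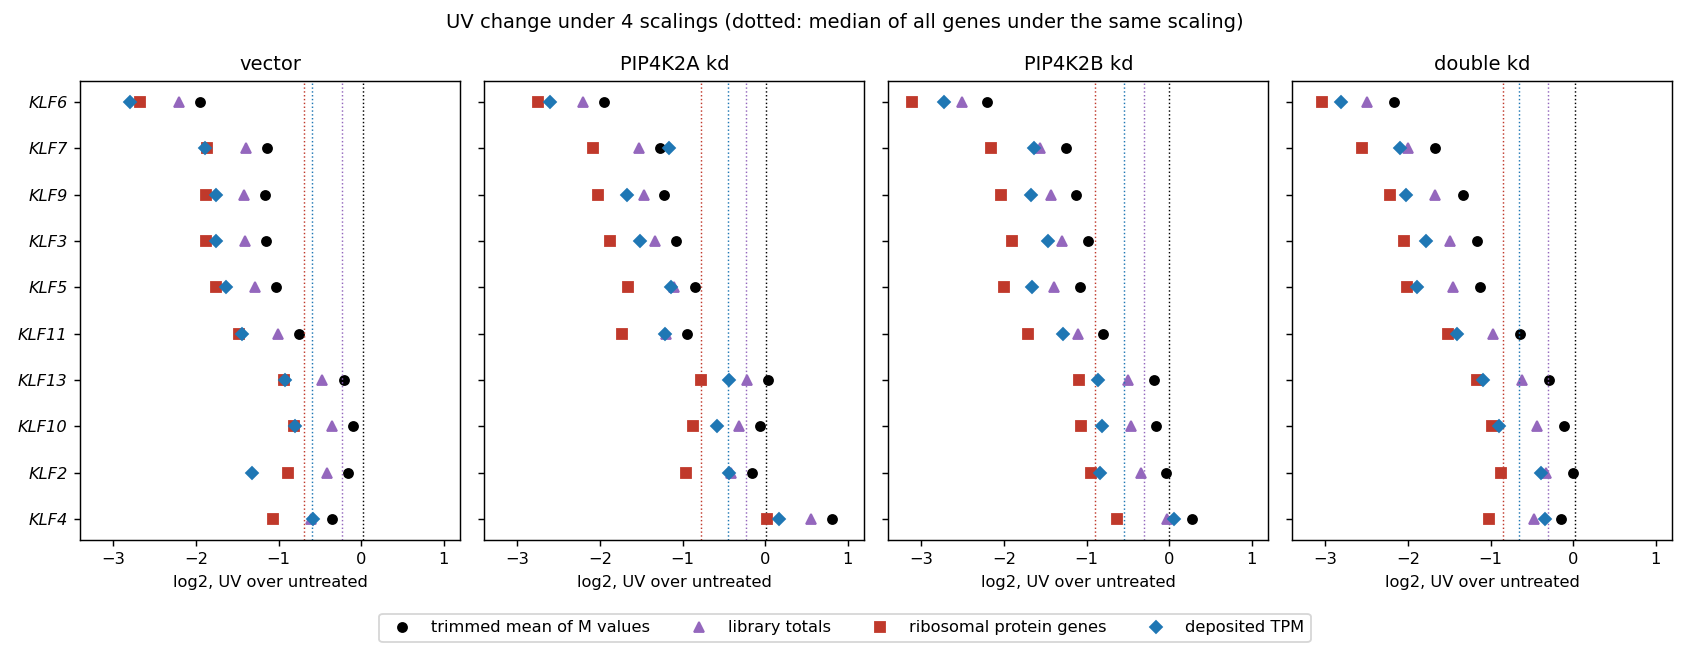
Log2 change of UV over untreated (horizontal axis) of each KLF gene under TMM, library totals without composition factors, 79 ribosomal protein genes, and deposited TPM; dotted lines give the median of all genes under the same scaling. Library totals, ribosomal protein genes and mostly also TPM place the genes further left than TMM does, KLF7 with PIP4K2A knockdown being an exception on TPM, and KLF6, KLF7, KLF9, KLF3, KLF5 and KLF11 stay left of the dotted line of their own colour by more than KLF10 does.

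The UV changes of the 10 genes were set side by side between lines, which share no library. Pearson's r was 0.89 between vector and PIP4K2A knockdown cells, 0.96 between vector and PIP4K2B knockdown, 0.97 between vector and double knockdown, 0.96 between the PIP4K2A and PIP4K2B knockdown lines, 0.91 between PIP4K2A and double knockdown and 0.96 between PIP4K2B and double knockdown, given as a description over 10 genes that share library depth. The spread of a gene's log2 change over the 4 lines was 0.10 for KLF10, 0.16 for KLF2, 0.18 for KLF3, 0.21 for KLF9, 0.25 for KLF6, 0.28 for KLF5, 0.30 for KLF11, 0.33 for KLF13, 0.54 for KLF7 and 1.16 for the barely detected KLF4.

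Levels can be compared between genes per length, on the deposited TPM. In untreated cells KLF5 was highest, with a median of 34.7 TPM over 7 libraries (27.8 to 42.8), followed by KLF7 at 16.8 and KLF10 at 13.96, then KLF3 at 12.4, KLF11 at 10.8, KLF6 at 10.2 and KLF13 at 10.2. KLF2 at 3.45 and KLF9 at 3.40 came next, and KLF4 stood at 0.14. Apart from KLF5, whose range touched no other, and KLF4, each gene's range overlapped that of its neighbour in this order, except between KLF13 (lowest 8.47) and KLF2 (highest 6.55). The order after UV was KLF5 at 10.4, KLF10 at 7.67, KLF13 at 5.54, KLF7 at 4.72, KLF11 at 4.10, KLF3 at 3.88, KLF2 at 2.27, KLF6 at 1.44, KLF9 at 0.78 and KLF4 at 0.11. By its median KLF6 moved from rank 6 to rank 8, below KLF13 and KLF2, and its range after UV overlapped that of KLF2. It was below KLF3 by the median already before UV, with overlapping ranges (9.0 to 12.2 against 9.98 to 14.4 TPM). After UV the lowest KLF3 library (3.14 TPM) lay above the highest of KLF6 (1.85). By their medians KLF10 and KLF13 passed KLF7, with overlapping ranges. The first irradiated PIP4K2A knockdown library again stood out, with 10.5 TPM of KLF7 against 3.68 in its partner, whereas their normalised CPM were 27.4 and 23.9. The isoform-weighted length that enters the TPM was 1720 bases there and 3683 in the partner.

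**Figure D4:**
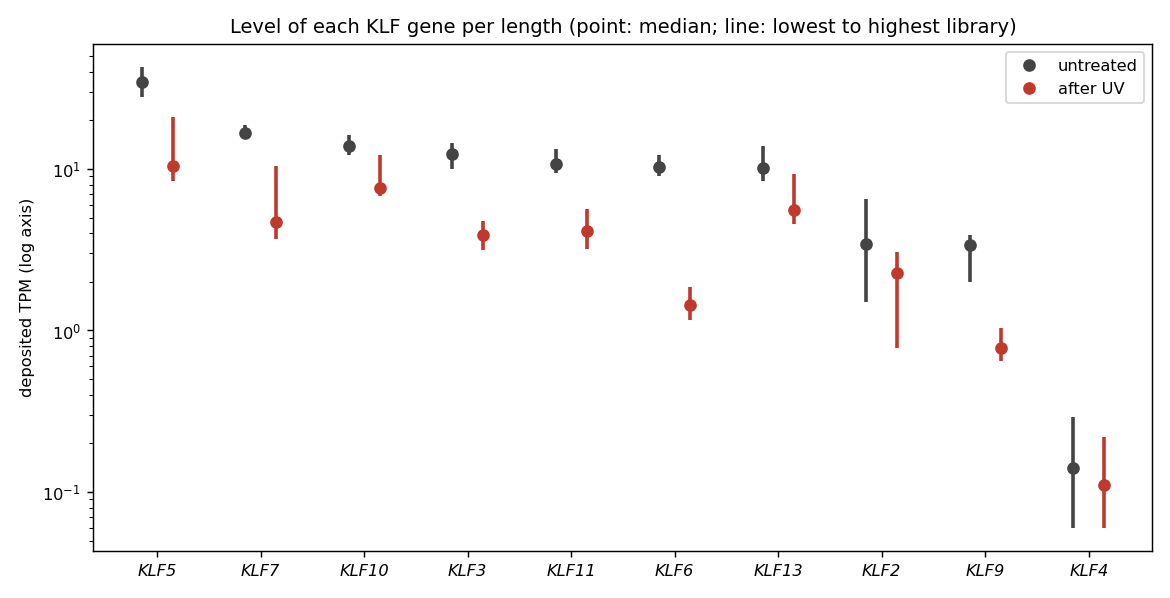
Deposited TPM (log axis) of each KLF gene, ordered by the untreated median; points are medians and lines run from the lowest to the highest library (7 untreated, 8 after UV). KLF5 is highest in both conditions at medians of 34.7 and 10.4 TPM, and KLF6 drops from 10.2 to 1.44.

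Between lines, KLF2 differed most. Untreated, it stood at 9.90 normalised CPM in the vector library, 6.36 and 8.61 with PIP4K2A knockdown, 11.1 and 13.3 with PIP4K2B knockdown, and 3.80 and 2.96 with both hairpins. After UV it stood at 8.14 and 9.64, 7.18 and 6.21, 12.01 and 11.8, and 3.64 and 3.13. The 4 double knockdown libraries were the lowest and the 4 PIP4K2B knockdown libraries the highest of all 15, with no overlap between either and the other lines. Against vector cells, the log2 difference of double knockdown cells was −1.55 untreated (SE 0.21, adjusted p = 0.00107 by edgeR, 1 vector library) and −1.39 after UV (SE 0.19, adjusted p = 0.000368). Double knockdown cells were also lower than PIP4K2A knockdown cells with log2 differences of −1.14 (SE 0.19) and −0.98 (SE 0.19), and lower than PIP4K2B knockdown cells with −1.85 (SE 0.18) and −1.81 (SE 0.19). PIP4K2B knockdown cells were higher than PIP4K2A knockdown cells with 0.71 (SE 0.17) untreated and 0.83 (SE 0.17) after UV. Neither single knockdown was called against vector cells: PIP4K2A knockdown against vector gave −0.41 untreated and −0.41 after UV, and PIP4K2B knockdown against vector 0.30 and 0.42. Each double knockdown call for KLF2 held with any 1 library left out, except that the single untreated vector library could not be. Against PIP4K2A knockdown after UV the call was lost when only these groups were fitted (−0.98, adjusted p = 0.0585 by edgeR). With the untreated vector library set aside put back, the calls against PIP4K2B knockdown stayed past the threshold and those against vector (−1.32 untreated and −1.39 after UV) and PIP4K2A knockdown did not. The call between the single knockdowns was lost when any 1 of 10 libraries was left out when untreated (0.50 to 0.84), and after UV without the first irradiated PIP4K2B knockdown library (0.83, adjusted p = 0.0567 by edgeR). The untreated call was also lost with ribosomal protein genes as the standard (0.57) or library totals (0.65), and that after UV when only the groups compared were fitted (0.84). Depth was 90 to 411 counts.

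In each comparison of lines 0 to 4 of the 10 members were called, and the share of all genes called is given beside each count. Against vector cells in the untreated state, 0 of 10 were called with PIP4K2A knockdown (0 of 10 also at an unadjusted p under 0.05, with 7.84% of all genes called), 1 with PIP4K2B knockdown (KLF11, 10.2% of genes) and 1 in double knockdown (KLF2, 6.2%). After UV, 1 was called with PIP4K2A knockdown (KLF7, 20.3%), 1 with PIP4K2B knockdown (KLF11, 19%) and 3 in double knockdown (KLF2, KLF6 and KLF7, 15.4%). PIP4K2B against PIP4K2A knockdown gave 1 untreated (KLF2, 3.16%) and 3 after UV (KLF2 and KLF11 higher, KLF6 lower, 14.4%). Double against PIP4K2A knockdown gave 2 untreated (KLF2 and KLF6, 7.1%) and 3 after UV (KLF2, KLF6 and KLF7, 19.5%), all lower. Double against PIP4K2B knockdown gave 4 untreated (KLF2 and KLF11 lower, KLF9 and KLF13 higher, 15.4%) and 2 after UV (KLF2 and KLF7, both lower, 17.7%). Comparisons that name the same line share its libraries. With ribosomal protein genes as the standard, the median gene differed between lines by −0.28 to 0.32 on the log2 scale, and 13.7% to 88.9% of the calls were higher, depending on the comparison.

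KLF7 after UV was lower in double knockdown cells than in vector cells by a log2 difference of −0.62 (SE 0.09, adjusted p = 0.000684 by edgeR) and than in PIP4K2B knockdown cells by −0.47 (SE 0.09, adjusted p = 0.00295), and both calls held with any 1 library left out. The call against PIP4K2B knockdown was lost with ribosomal protein genes as the standard (−0.33, adjusted p = 0.0761 by edgeR). Untreated, KLF7 was not called between any 2 lines. Its further calls after UV, double against PIP4K2A knockdown at −0.29 and PIP4K2A knockdown against vector at −0.32, were smaller; the first was lost when any 1 of 11 libraries was left out (−0.29 to −0.18), and the second without the first irradiated vector library (−0.26) or the second irradiated PIP4K2A knockdown library (−0.23). With ribosomal protein genes as the standard the second was −0.098 and not called (adjusted p = 0.578 by edgeR). Both were also lost without a filter on low counts and when only the groups compared were fitted.

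KLF6 after UV was lower in double than in PIP4K2A knockdown cells by a log2 difference of −0.57 (SE 0.10, adjusted p = 0.00261 by edgeR), which held with any 1 library left out and was lost when only the groups compared were fitted (−0.56, adjusted p = 0.081). Its other calls were near the threshold: double knockdown against vector after UV at −0.34 (adjusted p = 0.0439) and double against PIP4K2A knockdown untreated at −0.35 (adjusted p = 0.0425) were each lost when any 1 of 10 libraries was left out, and PIP4K2B against PIP4K2A knockdown after UV at −0.36 (adjusted p = 0.0339) when any 1 of 8 was. All 3 were lost without a filter on low counts, and double knockdown against vector after UV stood at −0.22 with ribosomal protein genes as the standard. KLF11 was higher in PIP4K2B knockdown cells than in vector cells with 0.40 untreated (adjusted p = 0.0494) and 0.35 after UV (adjusted p = 0.0235); the first was lost when any 1 of 11 libraries was left out and the second without either irradiated vector library or the second irradiated PIP4K2B knockdown library. It was also higher than with PIP4K2A knockdown after UV (0.38, lost without the second irradiated PIP4K2B knockdown library at 0.31) and lower in double than in PIP4K2B knockdown cells untreated (−0.34, lost when any 1 of the 4 libraries compared was left out, at −0.40 to −0.28). None of these 4 KLF11 calls passed with ribosomal protein genes as the standard or with library totals. With the first of these scalings the difference between the single knockdowns after UV was 0.11 (adjusted p = 0.606 by edgeR) and that between double and PIP4K2B knockdown untreated −0.22 (adjusted p = 0.374). KLF9 and KLF13 were higher in double than in PIP4K2B knockdown cells untreated, with 0.46 (SE 0.10) and 0.44 (SE 0.13). The KLF9 call was lost without the first library of either line, at 0.37 and 0.40, and the KLF13 call when any 1 of 10 libraries was left out, at 0.38 to 0.50. KLF13 was also higher in double knockdown than in vector cells, at 0.46 untreated and 0.38 after UV, without passing the test (adjusted p = 0.135 and 0.0762 by edgeR). With the set-aside untreated vector library put back, no call between lines passed for any member other than KLF2. In that fit the biological coefficient of variation, a measure of spread between libraries of a group, was 41.93% against 11.35% over 15 libraries. It is estimated over all groups together, also for comparisons without vector cells.

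**Figure D5:**
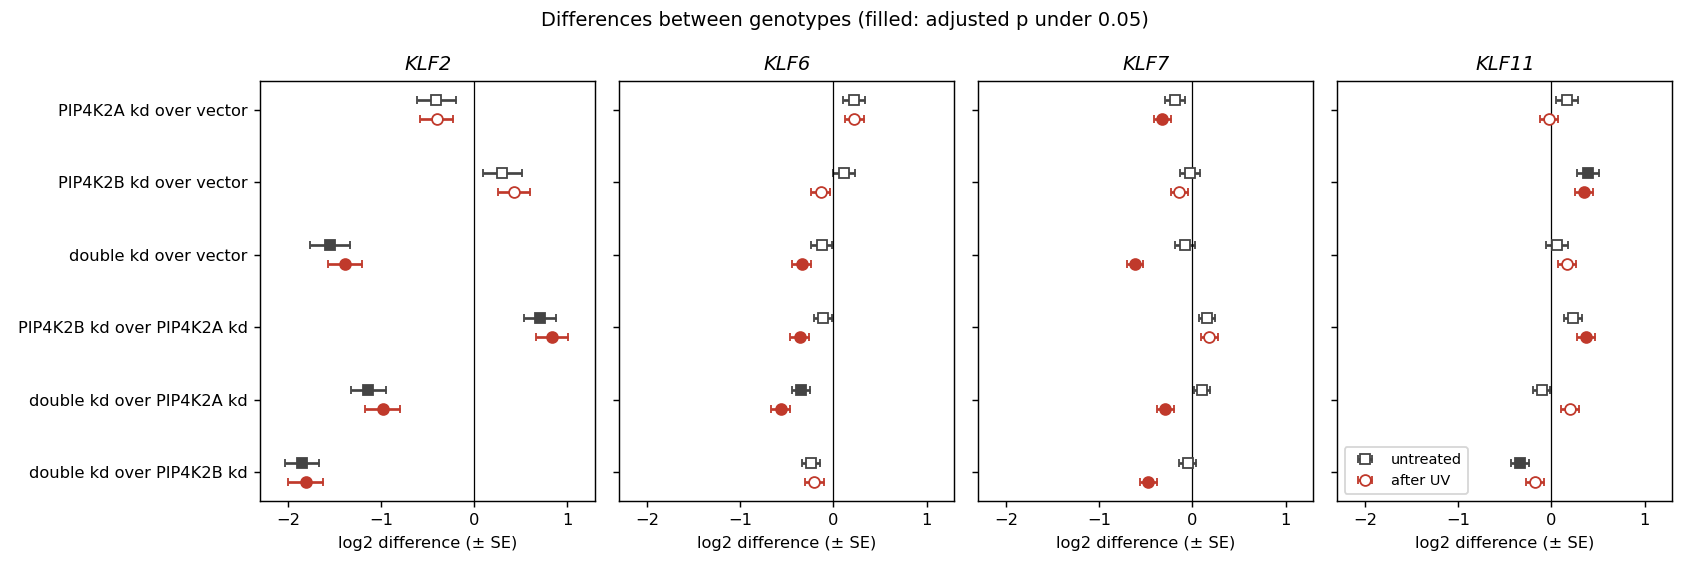
Log2 differences between lines (horizontal axis, ± SE) of KLF2, KLF6, KLF7 and KLF11, untreated (squares) and after UV (circles); filled symbols have an adjusted p under 0.05. KLF2 is lower in double knockdown cells in both conditions, whereas KLF7 is filled only after UV.

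The UV response itself was not called as different between lines for any member. The 6 interaction tests called 0.00885% of genes for PIP4K2A knockdown against vector, 0% for PIP4K2B knockdown against vector, 0.00885% for double knockdown against vector, 0% for PIP4K2B against PIP4K2A knockdown, 0.0133% for double against PIP4K2A knockdown and 0% for double against PIP4K2B knockdown. At an unadjusted p under 0.05, 0, 0, 1, 0, 2 and 1 members were reached in the same order, against 1109, 1655, 1209, 2088, 1641 and 796 genes. DESeq2 also called 0 members in each. KLF7 had the smallest unadjusted p, with a UV change in double knockdown cells that differed from that in vector cells by −0.54 on the log2 scale (SE 0.14, unadjusted p = 0.00235, adjusted p = 0.858 by edgeR), and by −0.40 and −0.42 from those with PIP4K2A and PIP4K2B knockdown. The greater fall of KLF7 in double knockdown cells is thus not shown to differ from that in the other lines. Without the second irradiated PIP4K2A knockdown library, KLF13 was called in the test of PIP4K2A knockdown against vector, KLF5 and KLF13 in that of PIP4K2B against PIP4K2A knockdown, and KLF5, KLF7 and KLF13 in that of double against PIP4K2A knockdown.

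The other genes of the family are the KLF and SP genes outside the 10. Of 17 further KLF and SP genes, 12 could be tested; 1, 2, 4 and 2 were lower after UV in vector, PIP4K2A, PIP4K2B and double knockdown cells, and 1, 1, 1 and 2 higher, where 8.67%, 16.6%, 17.5% and 19.1% of all genes were called higher. Their median log2 change was −0.17, −0.12, −0.26 and −0.19. SP6, linked to tooth and skin development, rose in every line (log2 1.28 to 1.42), SP8 fell in every line (−1.08 to −1.96) from a low level, and SP4 fell in the 3 knockdown lines (−0.34, −0.63 and −0.52). KLF15 was called higher only in double knockdown cells (1.99, SE 0.62; 1.13 and not called with ribosomal protein genes as the standard), at under 1 CPM in all 15 libraries, and none of the 12 was called for a different UV response between lines.

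Of 11 co-repressors and co-activators of these proteins, 2, 1, 2 and 4 were lower and 2, 3, 3 and 4 higher in the 4 lines, in the same order. Of all genes tested, 9.82%, 14%, 15.4% and 16.1% were called lower and 8.67%, 16.6%, 17.5% and 19.1% higher, beside this and every other list. SIN3A, the scaffold that the KLF9 group binds, fell by 0.99, 0.77, 0.93 and 1.15 on the log2 scale. The deacetylase gene HDAC1 rose by 0.40 to 0.53, a sign that turned with ribosomal protein genes as the standard (−0.49 to −0.25). Under TMM, HDAC3 rose by 0.56 with PIP4K2B knockdown and 0.54 with both. It was not called in vector cells (0.37) or with PIP4K2A knockdown (0.26). EP300, an acetyltransferase partner of the activators, fell in 3 lines (−0.54, −0.53 and −0.67). With PIP4K2A knockdown EP300 changed by −0.33 (adjusted p = 0.0621 by edgeR). Among 7 ubiquitin ligases reported to act on KLF proteins, 4, 5, 5 and 5 were lower and 0, 0, 1 and 0 higher, with a median of −0.32, −0.39, −0.59 and −0.54. FBXW7, the adaptor that marks KLF5 and KLF2 for degradation, fell by 1.03 to 1.32, and SMURF1, SMURF2 and BTRC fell in every line.

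Of 16 regulators upstream of KLF transcription, 4, 5, 5 and 5 were lower and 0, 1, 2 and 1 higher. The shares of all genes tested were again 9.82% to 16.1% lower and 8.67% to 19.1% higher, here and for the lists that follow. The receptor gene TGFBR2 fell by 0.61 to 0.93, the MEF2 factor gene MEF2D by 0.59 to 0.93, SMAD3 by 0.28 to 0.39 and the glucocorticoid receptor gene NR3C1 by 0.37 to 0.66. Of 11 tested genes described as KLF targets, 3, 3, 2 and 3 were lower and 3, 3, 4 and 4 higher: SMAD7 fell by 1.54 to 1.82 and PDGFA by 0.77 to 1.02, while LGALS3 rose by 0.47 to 0.80 and ODC1 by 0.47 to 0.57, both turning in sign with ribosomal protein genes as the standard (−0.26 to −0.08 and −0.44 to −0.16). Of 15 other early response factors, 7, 5, 5 and 8 were higher and 0, 1, 1 and 2 lower; FOS rose by 2.53, 2.91, 2.79 and 3.15, FOSB by 2.35 to 2.85, EGR1 by 1.03 to 1.91 and ATF3 by 0.43 to 1.05. With ribosomal protein genes as the standard FOS, FOSB and EGR1 stayed above 0 in every line, while ATF3 ran from −0.30 in vector cells to 0.14.

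For each member, the genes with the most similar profile over the 15 libraries were found. Among 11569 genes with a mean of at least 5 CPM, those with the highest Pearson's r of log2 CPM included MTF1 (0.993) and HMGXB4 (0.992) for KLF6, BCOR (0.995) for KLF5, WBP1L (0.985) for KLF7, ZBTB5 (0.993) and LIF (0.988) for KLF3, TMCC1 (0.987) and LIF (0.985) for KLF9, and TRIM32 (0.985) and RGMB (0.984) for KLF11. For the members not called under UV the highest values were lower: MIR4435-2HG (0.950) for KLF2, SLMAP (0.932) and HERPUD2 (0.926) for KLF13, FBXL7 (0.867) and ARID1B (0.853) for KLF10, and UGGT1 (0.765) and SAR1B (0.690) for KLF4. All these libraries share the UV contrast, and the correlations are descriptions.

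The largest fall, that of KLF6, was in a gene of 9.29 kb, and the longest member, KLF13 at 108.81 kb, was not called; KLF7 spans 93.13 kb, KLF3 36.85 kb, KLF9 30.03 kb, KLF5 22.57 kb and KLF11 11.99 kb, and the uncalled KLF2, KLF4 and KLF10 span 3.06, 5.63 and 7.12 kb. Of coding genes up to 10 kb and above 100 kb, 8.45% and 11.9% were called lower in vector cells, 11.7% and 14.7% with PIP4K2A knockdown, 9.65% and 19.6% with PIP4K2B knockdown, and 10.8% and 20.3% with both. In vector and PIP4K2A knockdown cells the share was highest in genes of 30 to 100 kb, at 13.4% and 16.8%. The 3′ untranslated regions of the members were searched for ATTTA, the core of AU-rich elements that shorten the life of a message. Counted in the longest annotated form, KLF7 had 20, KLF3 and KLF9 8 each, KLF6 and KLF11 6 each and KLF5 5, while KLF13 had 5, KLF2 and KLF10 3 each and KLF4 2, against a median of 2 over 14908 coding genes, of which 28.3% had at least 5. Coding genes with 4 or more copies were called lower in 12.8%, 17.9%, 24.3% and 22.2% of cases in the 4 lines, and those with none in 8.96%, 10.7%, 8.54% and 9.60%. These counts were looked up after the UV changes of the members were known, longer untranslated regions hold more copies, and a match is a description of the letters only.

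The isoform-weighted length, the mean length of a gene's transcripts weighted by their estimated abundance, gave no call for any member. It could be tested for 8 of the 10, since KLF9 has 1 length of 5175 bases in every library and KLF4 had too few counts, and limma called 0.901% of genes in vector cells, 2.42% with PIP4K2A knockdown, 1.48% with PIP4K2B knockdown and 2.45% with both. At an unadjusted p under 0.05 only KLF3 was reached, with a length after UV of 88.8% of untreated with PIP4K2B knockdown (adjusted p = 0.103 by limma) and 89.8% in double knockdown cells (adjusted p = 0.117 by limma). Without either irradiated PIP4K2A knockdown library both KLF3 shifts passed the test, and without the second so did KLF7 and KLF11 in that line.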

How the data were processed

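RNA-seq libraries were made from U2OS total RNA after removal of ribosomal RNA, with a directional kit, per the labels' protocols. Alignment with STAR, SAMtools and quantification with RSEM on GRCh38 are recorded per the submitters' processing notes. Their versions, the annotation release and the strandedness option were not given in the sources used here. The deposited tables hold, for each of 60666 genes, RSEM expected counts (estimated, not always whole), TPM and an isoform-weighted transcript length, which the authors estimated per library. Groups were taken from the labels. The 10 members and all gene lists were chosen with earlier results of these data known.

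The counts were rounded to whole numbers and fitted in edgeR 4.0.16 (quasi-likelihood, TMM scaling, filterByExpr with a minimum count of 10, Benjamini-Hochberg adjustment over 22597 genes, threshold 0.05) in 1 model of 8 group means over 15 libraries. One untreated vector library, with 1278298 counts against 28002912 to 39873512 in the others, was set aside with earlier results of these data known. In the 15 libraries used, KLF4 had 6 to 24 counts, which limits its precision. The standard error is the log2 fold change divided by the root of F. Intervals are 95% by a normal approximation, which makes them narrower than the quasi-likelihood test would. Length was tested on the log2 scale of the deposited weighted length with limma 3.58.1 (mean count of at least 100, at least 10 per library). Scripts were tested on simulated counts. R 4.3.3, Python 3.11.15 and pandas 2.3.3 were used. Of each list, up to 4 genes past the test in a UV contrast are named, by the smallest adjusted p in double knockdown cells. Gene positions are from GENCODE on GRCh38, promoters from RefSeq on GRCh38.p14.

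Alternatives were DESeq2 1.42.0, its size factors, ribosomal protein scaling, other filters, a replicate block, all 16 libraries, only the groups compared and leaving out each library. Library totals without composition factors were added after the data had been seen. Replicate numbers are shared between groups. Same-numbered libraries deviated together in some pairs of groups but not in most (correlations of −0.379 to 0.672 over 21 pairs, 5 of them over 0.1 and 6 under −0.1). They were not treated as pairs in the main model. Some genes with profiles like those of the members are not reported here.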

Additional observations from a re-analysis of the deposited data

Results flagged for a closer look

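In the set-aside untreated vector library, which no main comparison uses, KLF8 and KLF14 were flagged. The rule was more than 2 times the highest CPM of the other 15 libraries, with at least 10 expected counts. KLF8 was at 55.5 CPM there, from 71 expected counts, against 0.36 to 1.69 CPM in the other 15. KLF14 was at 10.95 CPM, from 14 expected counts, against 1.38 to 3.47. Other family genes also lay outside their range there without meeting the rule. KLF3 (140.8 CPM against at most 76.6), KLF9 (35.2 against at most 26.1) and KLF12 (86.8 against at most 63.5) were higher. KLF5 (14.1 against at least 30.3) and KLF13 (36.0 against at least 61.9) were lower. That library also differed in depth and fragment length, as given above, and the part of these in the values of KLF8 and KLF14 was not tested.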

How the results depend on the processing

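Counts of members are out of 10, with the reported count in the report. Under DESeq2 and under its size factors no count moved by more than 1.5 times. The fall under UV held for KLF3, KLF6 and KLF9 in every line under every alternative run, and for KLF5, KLF7 and KLF11 under all but 1: with all 16 libraries, 3 members were called in each of vector, PIP4K2A and PIP4K2B knockdown cells (KLF3, KLF6 and KLF9). That setting gave 0 in every comparison between lines except double against PIP4K2B knockdown, with 1 untreated and 1 after UV (KLF2). Ribosomal protein scaling gave 0 for PIP4K2B knockdown against vector untreated and after UV, 3 for double knockdown against vector untreated, 3 for PIP4K2A knockdown against vector after UV, 0 untreated and 6 after UV for PIP4K2B against PIP4K2A knockdown, and 1 for double against PIP4K2A knockdown untreated. With only the groups compared, double knockdown against vector gave 2 untreated and 5 after UV, PIP4K2B knockdown against vector 2 after UV, and PIP4K2A knockdown against vector, PIP4K2B against PIP4K2A and double against PIP4K2A knockdown 0 after UV. Library totals gave 0 for PIP4K2B knockdown against vector in both conditions. Without a filter that comparison gave 0 untreated and double knockdown against vector 2. With CPM above 1, PIP4K2B against PIP4K2A knockdown gave 2 untreated. With the replicate block, which rests on a shared number only, 0 members were called untreated for PIP4K2B knockdown against vector (KLF11 adjusted p = 0.0583 by edgeR) and for PIP4K2B against PIP4K2A knockdown (KLF2 adjusted p = 0.0628), and no other count of members changed by more than 1.5 times. KLF13 under UV with PIP4K2A knockdown changed sign to −0.78 with ribosomal protein scaling and to −0.28 without the first irradiated library of that line, and stood at 0.27 without the second.

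With each library left out in turn, the counts ranged as follows. UV gave 6 to 6 in vector, 6 to 8 in PIP4K2A knockdown and 6 to 7 in PIP4K2B and double knockdown cells. Against vector, PIP4K2A knockdown gave 0 to 3 after UV, PIP4K2B knockdown 0 to 1 in both conditions, and double knockdown 1 to 2 untreated and 2 to 4 after UV. PIP4K2B against PIP4K2A knockdown gave 0 to 2 untreated and 1 to 5 after UV, double against PIP4K2A knockdown 1 to 3 and 2 to 5, and double against PIP4K2B knockdown 1 to 5 and 2 to 3. The UV response test gave 0 to 1 for PIP4K2A knockdown against vector, 0 to 2 for PIP4K2B against PIP4K2A, and 0 to 3 for double against PIP4K2A knockdown. Weighted lengths gave 0 to 4 calls. Where a call was lost, the cause was not tested. Depth limits KLF4, at 6 to 24 counts.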
